A study of Oryctolagus cuniculus with 8 samples.

Results

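The genes described here act in blood clotting, in the dissolving of clots and in kinin signalling, and their RNA was measured in rabbit retinas. They were chosen by symbol: SERPINB2, F2R, F3, BDKRB2, PLAT, PLAU, SERPINE2, THBD and TFPI. Of these 9 genes, 8 had a row in the deposited table of 25666 genes, of which 19293 are protein-coding, and THBD was not analysed here. The study named 4 of them (SERPINB2, F2R, F3 and BDKRB2) from these same libraries as lower with the combined diet, so their fall in that diet is not independent evidence. RNA was sequenced from 8 retinas of wild-type male Chinchilla rabbits, which were 12 to 16 weeks old at the start and about 10 months old at the end of 6 months of feeding. Each diet is represented by 2 retinas. The normal diet (ND) was standard rabbit chow, to which the high-fat diet (HFD) added lard at 10% and cholesterol at 0.5%. The high-sucrose diet (HSD) added sucrose at 40%, and the high-fat plus high-sucrose diet (HFSD) added the same lard and cholesterol with sucrose at 35%. The labels do not say whether the 2 retinas of a diet came from separate animals or which area of the retina was taken, and p-values measure only the spread between these samples.

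Clotting starts when tissue factor, the product of F3, meets factor VII, and it ends in thrombin, which makes fibrin and signals to cells through protease-activated receptors such as F2R. TFPI and thrombomodulin (THBD) hold this cascade back. Plasmin dissolves fibrin and is released from plasminogen by the activators PLAT and PLAU, which serpins such as SERPINB2 and SERPINE2 inhibit. Kinins are short peptides cut from kininogen by kallikrein, and BDKRB2 is the receptor through which they widen vessels and make them leaky. Many of these genes are also active in glia and neurons, where PLAT and SERPINE2 take part in the remodelling of synapses.

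Recovered library depths, the totals that scale the values, ran from 15764577 to 22785832 fragments. Fragments summed over genes exceeded this depth in ND replicate 2 (18161591 against 17706804) and HFD replicate 1 (20430617 against 19970643), and the reason was not tested. The photoreceptor arrestin SAG, a retinal marker, was at 2826 to 3820 FPKM (fragments per kilobase of gene, scaled to library depth). The composition of the libraries varied in ways that the diets do not account for. In HSD replicate 2 the muscle gene MYL1 reached 141 FPKM, against at most 0.177 FPKM in the other 7 libraries. The endothelial markers CDH5, EMCN and PECAM1 lay at or below 0.0682 FPKM in ND replicate 2, HSD replicate 1 and HFSD replicate 1, and were highest in ND replicate 1. More abundant endothelial markers ran otherwise. KDR was lowest in ND replicate 1, at 75.8 FPKM, against 126, 124 and 131 FPKM in those 3 libraries, and FLT1 was highest in HFSD replicate 1, at 31.6 FPKM. In such bulk samples, fewer cells of a type and less RNA per cell cannot be told apart.

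SERPINB2, the inhibitor of plasminogen activators known as PAI-2, showed the largest difference of the 8 genes in HSD, in HFSD and with sucrose. Its level was 2.67 and 3.97 FPKM in ND, 2.60 and 4.92 FPKM in HFD, 0.292 and 0.338 FPKM in HSD, and 0.0405 and 0.409 FPKM in HFSD. All 4 retinas with sucrose in the diet lay below all 4 without it. The values rest on 170, 229, 169 and 292 fragments without sucrose and on 15, 19, 3 and 21 fragments with it. The mean was 3.54±1.11 FPKM without and 0.270±0.160 FPKM with sucrose (s.d., n=4), a ratio of 13.1. From summed fragments the level was 14.1-fold lower with sucrose (exact 95% interval 10.8 to 18.7, which covers counting error only).

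The difference made by sucrose was tested as the mean of HSD and HFSD minus the mean of ND and HFD, on log2(FPKM + 1), with 1 model of all 8 libraries. On this scale SERPINB2 fell by 1.82 (standard error 0.213, limma, Benjamini-Hochberg adjusted p=0.0311 over 12204 genes). SERPINB2 reached the filter of 1 FPKM in at least 2 libraries only through the retinas without sucrose, and without the filter its adjusted p was 0.125 (limma). It was the 1 gene called among the 8, where 0.344% of all tested genes were called and 0.287% were called as lower. In the separate comparisons with ND, its log2 fold change was -1.70 in HSD (adjusted p=0.205, limma) and -1.82 in HFSD (adjusted p=0.177, limma), and neither passed the threshold. In HFD it was 0.11 (95% interval -0.59 to 0.82), and its sign turned without ND replicate 1 or without HFD replicate 2. The interaction of fat and sucrose was -0.23 (95% interval -1.23 to 0.77). The call with sucrose is near its limit, since it was kept in 7 of 14 other settings, with adjusted p between 0.00613 and 0.125, and was lost without the filter on low values, with voom on recovered fragments, without HFD replicate 2 and without each of the 4 sucrose retinas in turn. The fall itself was present in all 14 settings.

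**Figure D1:**
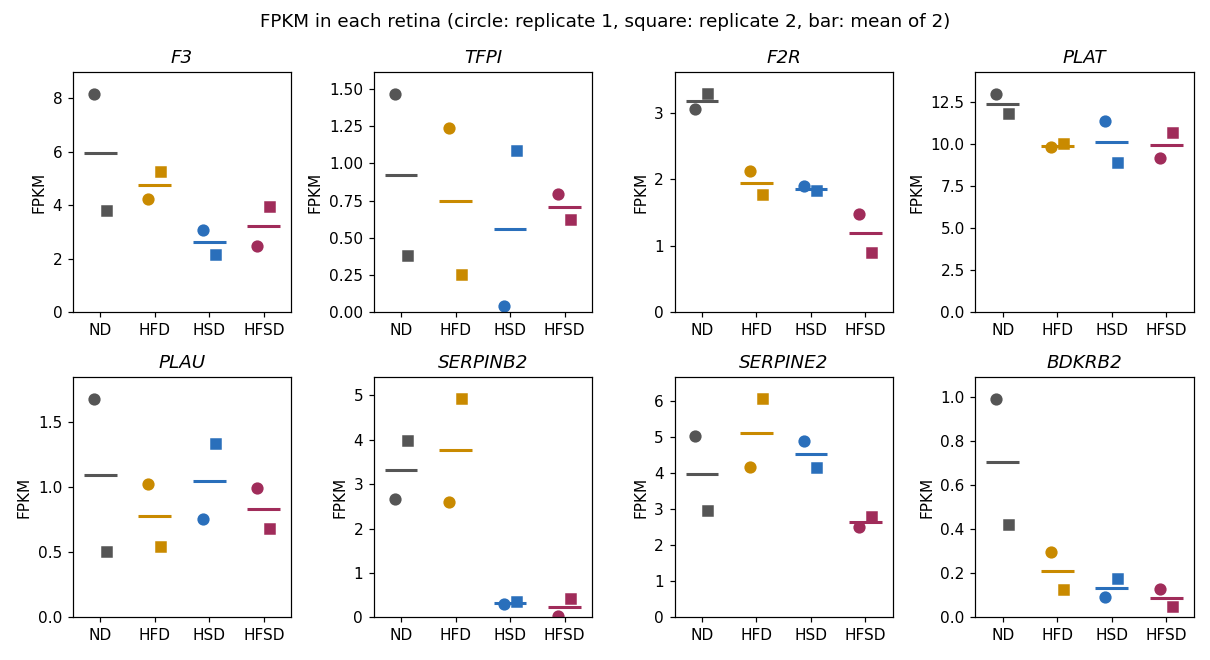
FPKM of the 8 genes (vertical axes, each from 0) in the 2 retinas of each diet (horizontal axes), with replicate 1 as a circle, replicate 2 as a square and a bar at the mean. SERPINB2 lay at or below 0.409 FPKM in the 4 retinas with sucrose and at or above 2.60 FPKM in the others, while the TFPI and PLAU values of the diets overlapped.

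Other genes fell with SERPINB2. The 3 genes whose log2(FPKM + 1) ran most like it over the 8 libraries, of 9610 genes with a symbol and a mean of at least 1 FPKM, were PXYLP1 (r=0.980), TBX5 (r=0.980) and NR2F2 (r=0.976). These are descriptions over 8 libraries that share the diets, with no test. TBX5 was between 3.27 and 11.7 FPKM without sucrose and between 0.0175 and 0.560 FPKM with it. TBX5 and NR2F2 are transcription factors of the dorsal retina, and a list of 8 dorsal genes was therefore added after these values were seen. TBX5 and NR2F2 are themselves on it, so its count is no independent evidence. Of the 8, 7 (both included) were lower in every retina with sucrose than in every retina without, as were 6.48% of all tested genes. The 8 summed to 62.7 to 75.8 FPKM with and 103 to 191 FPKM without sucrose. Of 6 ventral genes, 1 was higher and 1 lower in this sense, with sums of 53.3 to 76.2 and 43.9 to 59.1 FPKM. Among cell types, 3 of 7 Müller glia markers (GLUL, CLU and RLBP1) and 4 of 8 microglia markers (C1QA, C1QB, C1QC and CSF1R) were lower in all sucrose retinas. The share of all tested genes lower in this way was 6.48%, as above. Summed, the Müller glia markers were at 2417 to 2538 FPKM with and 3348 to 4553 FPKM without sucrose, and the microglia markers at 9.86 to 13.95 and 14.5 to 25.5 FPKM. GLUL held much of the Müller glia difference (722 to 890 and 1489 to 2127 FPKM), while SLC1A3, VIM, SOX9 and KCNJ10 overlapped. Of the microglia markers, AIF1, CX3CR1, P2RY12 and TREM2 overlapped, so neither sum stands for its whole list. The study found no difference between diets in cells stained for the microglial proteins IBA1 or CD68. The 10 pigment epithelium markers summed to 108 to 194 and 224 to 459 FPKM, with 2 of the 10 lower in all sucrose retinas. Markers of the ocular surface epithelium, where SERPINB2 is known to be abundant, did not separate (2.29 to 3.74 and 1.88 to 4.79 FPKM, 4 of 6 in the table, KRT5 at 0 in all 4 sucrose retinas). The remaining sums, with and without sucrose, overlapped: mural cells 3.79 to 9.36 and 6.96 to 21.3 FPKM, fibroblasts 16.9 to 50.7 and 17.8 to 28.4 FPKM, early-response genes 277 to 546 and 121 to 2150 FPKM, blood and platelets 1.62 to 2.38 and 2.31 to 4.02 FPKM, and muscle 2.47 to 356 and 3.75 to 4.40 FPKM. The part of these changes in the fall of SERPINB2 was not tested.

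**Figure D2:**
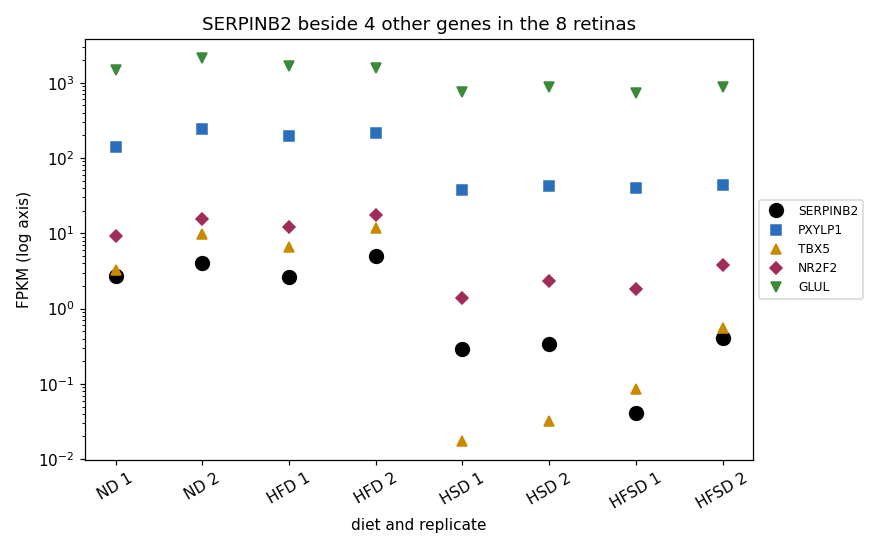
FPKM on a log axis of SERPINB2, of the 3 genes most like it and of the Müller glia gene GLUL in each of the 8 retinas, named by diet and replicate. All 5 genes were lower in the 4 retinas with sucrose, GLUL at 722 to 890 FPKM against 1489 to 2127 FPKM.

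F3, which encodes tissue factor, was at 8.16 and 3.76 FPKM in ND, 4.24 and 5.24 FPKM in HFD, 3.08 and 2.13 FPKM in HSD, and 2.47 and 3.93 FPKM in HFSD. ND replicate 1 stood above all other retinas, both HSD retinas lay below both ND retinas, and HFSD replicate 2 lay within the ND range. The means were in the order ND, HFD, HFSD and HSD (5.96±3.11, 4.74±0.703, 3.20±1.03 and 2.60±0.674 FPKM, s.d., n=2). ND and HFD, and HFSD and HSD, differed by less than the larger of their s.d., while HFD lay above HFSD by more than that. On the log2(FPKM + 1) scale F3 differed from ND by -0.89 in HSD (95% interval -1.66 to -0.11) and by -0.68 in HFSD (95% interval -1.45 to 0.10) (limma adjusted p, 0.634 and 0.664). With sucrose against without, the difference was -0.68 (standard error 0.234, adjusted p=0.206, limma). Without ND replicate 2 the difference in HFSD was -1.15 and that in HSD -1.36, and without ND replicate 1 they were -0.20 and -0.42. In that library GFAP, the intermediate filament of astrocytes, was also highest, at 524 FPKM, against 12.1 FPKM in ND replicate 2, 216 and 203 FPKM in HFD and 1.08 to 69.5 FPKM in the sucrose retinas. The 5 astrocyte markers summed to 385 to 1128 FPKM without and 240 to 479 FPKM with sucrose, and their part in the F3 values was not tested. The genes that ran most like F3 were ARAP2 (r=0.979), CEMIP (r=0.957) and RTKN (r=0.954).

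TFPI, the inhibitor of the complex of tissue factor and factor VII, varied widely between the retinas of ND, of HFD and of HSD. It was at 1.47 and 0.380 FPKM in ND, 1.24 and 0.251 FPKM in HFD, 0.0388 and 1.08 FPKM in HSD, and 0.792 and 0.620 FPKM in HFSD, from 2 to 94 fragments. The diets overlapped, and the difference with sucrose was -0.15 (95% interval -0.90 to 0.59), a range that leaves room for a change in either direction. TFPI is made by endothelial cells. Over the whole list, 10 of 11 endothelial markers were in the table, their sum was 128 to 167 FPKM and came mostly from KDR, the markers did not share one order over the libraries, and the part of endothelial RNA was not tested. Tissue factor exceeded TFPI in all 8 retinas, by a ratio of FPKM between 1.97 and 79.4.

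F2R, the main receptor through which thrombin signals, was at 3.06 and 3.29 FPKM in ND, 2.13 and 1.77 FPKM in HFD, 1.90 and 1.83 FPKM in HSD, and 1.49 and 0.899 FPKM in HFSD. Every retina of the 3 diets lay below both ND retinas, and both HFSD retinas lay below all others. The means fell in the order ND, HFD, HSD and HFSD (3.18±0.164, 1.95±0.255, 1.86±0.0510 and 1.19±0.416 FPKM, s.d., n=2). HFD and HSD differed by less than the larger of their s.d. On the log2(FPKM + 1) scale F2R differed from ND by -0.50 with HFD, -0.54 with HSD and -0.94 with HFSD (standard error 0.195 each), and the limma adjusted p were 0.998, 0.600 and 0.268. The 95% interval in HFSD was -1.40 to -0.48, and leaving out each retina in turn gave -1.14 to -0.75. Summed fragments were 150 in ND and 61 in HFSD, a 2.54-fold lower level (exact 95% interval 1.88 to 3.49, counting error only). F2R differed by -0.45 with fat and by -0.49 with sucrose (standard error 0.138 each), and neither passed the threshold. With fat it was the 1 gene of the 8 at an unadjusted p under 0.05, where 2% of tested genes were lower at this level and 0.00819% were called. The genes most like it were SLC46A3 (r=0.966), GMPR (r=0.941) and DOCK8 (r=0.912).

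PLAT, the tissue-type plasminogen activator, was the most abundant of the 8 genes per length, and 66.2% of protein-coding genes lay below its ND level. It was at 12.97 and 11.7 FPKM in ND, 9.78 and 9.96 FPKM in HFD, 11.3 and 8.84 FPKM in HSD, and 9.17 and 10.6 FPKM in HFSD. No retina on another diet reached the lower ND value, but the gap was small, with HSD replicate 1 next under ND replicate 2. HFD, HSD and HFSD differed from ND by -0.30, -0.28 and -0.30 (standard error 0.1501 each, limma adjusted p 0.998, 0.762 and 0.667), with -0.11 for HSD without its replicate 2 and -0.44 without its replicate 1, and the means of the 3 diets differed from each other by less than the larger s.d. of each pair. PLAT rests on 1046 to 1741 fragments per library. The genes most like PLAT were LBR (r=0.939), C9orf78 (r=0.916) and FGD3 (r=0.903).

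PLAU, the urokinase-type activator, was at 1.67 and 0.504 FPKM in ND, 1.02 and 0.536 FPKM in HFD, 0.755 and 1.33 FPKM in HSD, and 0.989 and 0.674 FPKM in HFSD. The ND retinas spanned all other values. With sucrose against without, PLAU differed by 0.03 (95% interval -0.51 to 0.57). PLAT exceeded PLAU in each retina, by a ratio of FPKM between 6.64 and 23.3.

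SERPINE2, which encodes protease nexin-1, an inhibitor of thrombin and of plasminogen activators, was at 5.03 and 2.96 FPKM in ND, 4.17 and 6.06 FPKM in HFD, 4.91 and 4.14 FPKM in HSD, and 2.50 and 2.80 FPKM in HFSD. Both HFSD retinas lay below the other 6. With either addition alone the difference from ND was above 0, at 0.31 in HFD and 0.18 in HSD. These were 0.004 and -0.13 without ND replicate 2, and 0.61 and 0.48 without ND replicate 1. In HFSD the difference was -0.42 (95% interval -0.996 to 0.15), with -0.12 without ND replicate 1 and -0.73 without ND replicate 2. The interaction of fat and sucrose was -0.90 (95% interval -1.72 to -0.09), but its adjusted p was 0.999 from limma, 0.00819% of tested genes were called, and 1.97% were lower at an unadjusted p under 0.05. The genes most like SERPINE2 were SP6 (r=0.9505), SLC16A6 (r=0.941) and CARS (r=0.926).

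BDKRB2, the receptor of bradykinin, was the lowest of the 8 genes and below the filter of 1 FPKM in at least 2 libraries. It was at 0.991 and 0.421 FPKM in ND, 0.299 and 0.123 FPKM in HFD, 0.0946 and 0.173 FPKM in HSD, and 0.131 and 0.0473 FPKM in HFSD. Both ND retinas lay above all 6 others, from 26 and 10 fragments in ND against 1 to 8 elsewhere. In HFSD, 5 fragments stood against 36 in ND, a 7.45-fold lower level with an exact 95% interval of 2.91 to 24.3 for counting error only. In a limma fit without the filter HFD, HSD and HFSD differed from ND by -0.48, -0.57 and -0.63 (standard error 0.179, adjusted p of 1, 0.675 and 0.621). Without ND replicate 1 they differed by -0.24, -0.33 and -0.39, and without ND replicate 2 the HFD value was -0.72. BDKRB1, the inducible kinin receptor, was listed at 0 in 4 libraries and reached at most 0.0975 FPKM.

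**Figure D3:**
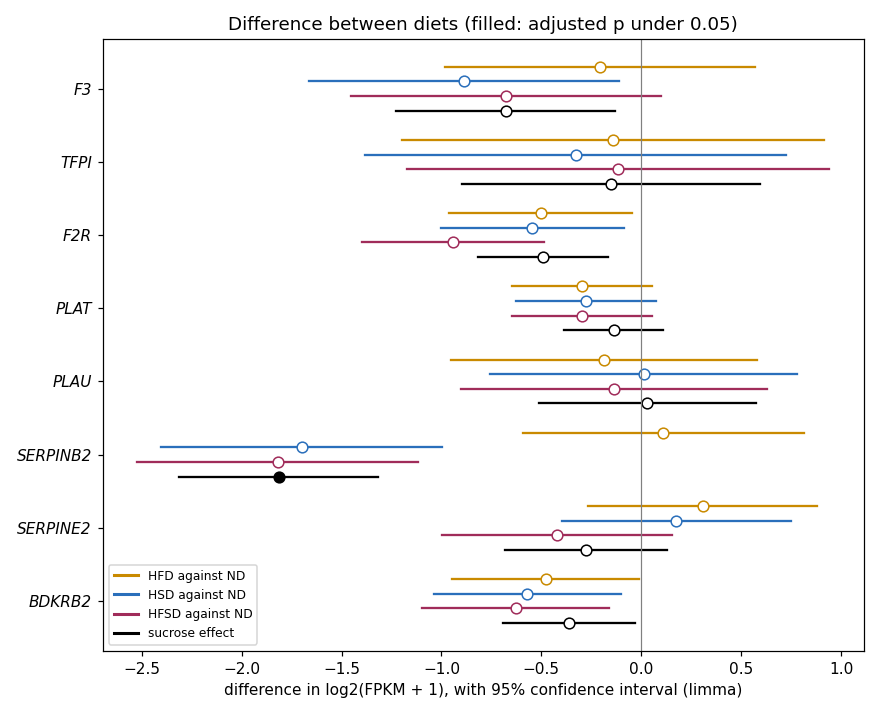
Differences in log2(FPKM + 1) on the horizontal axis for the 8 genes, each diet against ND and the 4 retinas with sucrose against the 4 without, with 95% confidence intervals from limma as lines. The 1 filled point, SERPINB2 with sucrose at -1.82, had an adjusted p under 0.05, and the point of PLAU with sucrose was at 0.03.

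Differences from ND below 0 numbered 6 of 8 for HFD, 6 for HSD and 8 for HFSD, with medians of -0.20, -0.44 and -0.53, beside medians of 0.006, -0.002 and -0.004 over all tested genes, of which 48.8%, 50.5% and 50.8% were below 0. The count in HFSD includes the 4 genes that the study named as lower there. These values depend on single libraries. Without ND replicate 1 the counts were 4, 5 and 6 of 8 and the medians 0.06, -0.27 and -0.22, so that the HFD median changed sign. Without ND replicate 2 the medians were -0.51, -0.63 and -0.80, and without HFD replicate 1 the HFD median was -0.33. These 3 comparisons share the ND retinas, and ND replicate 1 held the highest F3, TFPI, PLAT, PLAU and BDKRB2 values of all 8 libraries. The pigment epithelium markers also stood highest in ND, with sums of 459 and 452 FPKM in ND against 224 and 262 FPKM in HFD and 108 to 194 FPKM with sucrose. For 8 of the 10, both ND retinas lay above the 6 others, as for F2R, PLAT and BDKRB2. The share of all tested genes for which this held was not counted, so this parallel cannot be weighed. The part of this tissue in the results was not tested. Both retinas of the diet lay below both ND retinas for 3 HFD, 5 HSD and 5 HFSD comparisons out of 8, where 13.3%, 19.7% and 20.6% of all tested genes did so. None of the 8 was called by limma in HFD, HSD or HFSD against ND, where 0.00819%, 0.0574% and 0.0164% of tested genes were called, and none with voom on recovered fragments. Before adjustment, p was under 0.05 for 2, 4 and 3 of the 8 genes, all lower, against 2.51%, 4.51% and 4.37% of tested genes that were lower and 1.8%, 2.7% and 3.7% that were higher. Each of these counts includes BDKRB2, from the fit without the filter, while the shares are over genes past the filter. BDKRB2 is also among the 8 in the signs, medians and separations above. By the fold rule of the study (the ratio of group means of FPKM with 1 added, under 0.65 or over about its inverse), 0 genes passed for HFD, 2 for HSD (F3 and SERPINB2) and 4 for HFSD (F3, SERPINB2, F2R and BDKRB2), all lower, where 0.809%, 2.42% and 2.4% of protein-coding genes passed the lower limit and 0.949%, 1.53% and 1.03% the upper. The study named the 4 genes from its own list by this rule, so this count in HFSD is not independent. It does not say how the retinas of a diet were combined. With group means, 463 protein-coding genes were lower and 198 higher in HFSD. That is more than the study reported as changed, so its list was not reproduced. Without ND replicate 1, the HFSD count was 2 (SERPINB2 and F2R), the HSD count 1 (SERPINB2) and the HFD count 1 (SERPINE2, higher). Without ND replicate 2 the HFD count was 2 and the HSD count 4, and without HSD replicate 2 the HSD count was 4.

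The rest of the pathway was read from 59 further genes in 5 lists written from general knowledge, of which 49 were in the table, 23 were tested and 8 had no fragment in any library. Several plasma proteins made by the liver were at or near 0, with FGA, F9, F10 and F13B at 0 in every library and FGB and FGG at no more than 0.0636 FPKM. Others were not, such as antithrombin (SERPINC1) at 0.443 to 3.01 FPKM and A2M, a broad protease inhibitor, at 0.668 to 3.67 FPKM. Prothrombin (F2) was at 0.0859 to 1.58 FPKM and factor VII (F7) at 0.791 to 3.46 FPKM. Genes that serve other cellular roles as well were abundant, among them VKORC1, which recycles vitamin K, at 86.3 to 151 FPKM, PROS1 (protein S) at 34.7 to 49.7 FPKM, and SERPINI1, the neuronal inhibitor of PLAT called neuroserpin, at 104 to 160 FPKM. F2RL1, the 1 further protease-activated receptor in the table, was at 0 to 0.112 FPKM.

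Of the 23 tested genes, 0 were called in a diet against ND or with sucrose (limma). Before adjustment, p was under 0.05 for 1 gene lower with HFD, for 2 with HSD and for 3 with HFSD, where 1 was also higher, and with sucrose 5 were lower and 1 higher, against 9.16% of tested genes lower and 9.17% higher with sucrose. By list, 2 of 7 coagulation factors were lower with sucrose at this level and 1 higher, 2 of 5 anticoagulants and 1 of 2 kinin genes were lower, and 0 of 9 fibrinolysis genes passed in either direction. The higher factor was F2, which reached 1 FPKM only in the 2 HFSD retinas, at 1.58 and 1.03 FPKM, and was at most 0.901 FPKM elsewhere. F2, VWF and SERPINB8 were the 3 of the 23 that reached 1 FPKM only with or only without sucrose. SERPING1 reached it in 1 retina with sucrose and in all 4 without, so it met the filter of 2 libraries only through the latter. These counts are therefore no support for a direction. The 3 genes with the smallest p were ANXA5, SERPING1 and ECE1 in HSD, in HFSD and in the test of sucrose. ANXA5, which covers the phospholipid surfaces on which clotting runs, was at 15.1 to 21.6 FPKM in the 4 retinas without and 6.69 to 9.85 FPKM in the 4 with sucrose, a difference of -1.09 (standard error 0.175, adjusted p=0.0629, limma). SERPING1, the inhibitor of kallikrein and of complement C1, which the study also named as lower in HFSD, was at 1.85 to 2.64 FPKM without and 0.728 to 1.27 FPKM with sucrose (-0.77, standard error 0.140, adjusted p=0.0838, limma). ECE1, a peptidase that also cleaves bradykinin, was at 8.75 to 10.2 and 6.32 to 7.65 FPKM (-0.40, standard error 0.0919, adjusted p=0.113, limma). These 3 were chosen by their p, and their separation is no further evidence. Over all 23 tested genes, 4 (these 3 and GGCX) were lower in every retina with sucrose than in every retina without, and 0 were higher in every one, where 6.48% of tested genes were lower in this way. In HFD the smallest p values belonged to THBS1 (thrombospondin, -0.50), PLGRKT (a plasminogen receptor, 0.33) and F7 (0.48), each with an adjusted p of 0.998 from limma.

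**Figure D4:**
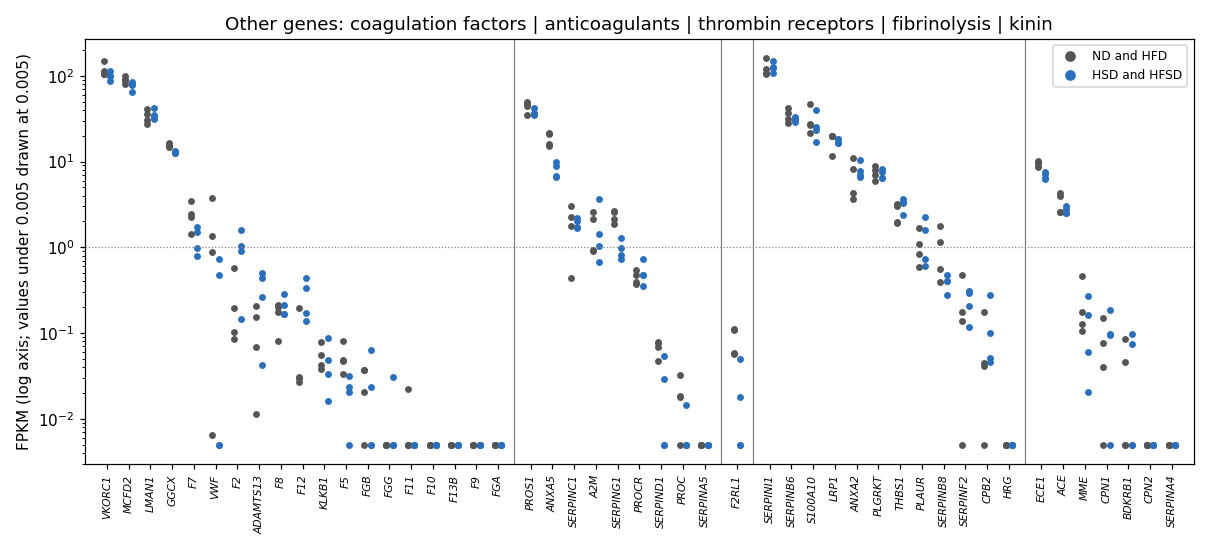
FPKM on a log axis of further genes in the 5 lists, all but 1 of the 49 in the table, each point a retina, grey without and blue with sucrose, with values under 0.005 FPKM drawn at 0.005 and a dotted line at 1 FPKM. The points of ANXA5, SERPING1 and ECE1 do not overlap between grey and blue.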

How the data were processed

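RNA of 8 retinas was sequenced by the authors from TruSeq libraries after TRIzol extraction and DNase treatment. Per the study's methods, reads were checked with FastQC, trimmed, mapped to the rabbit genome with TopHat2, and discarded when they mapped to several places. The deposited values are FPKM per gene and library from the authors' R script. The genome build, annotation and tool versions are not given in the sources used here, so no coordinates are stated, and no sequence is shown. Every value column belonged to a sample (0 were left over). FPKM values were whole multiples of 1 fragment for 100% of the values above 0 (relative tolerance 0.0001), which gave depths and fragments. The steps were also tested on simulated data.

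limma 3.58.1 (R 4.3.3) fitted 1 model of 4 diet means to log2(FPKM + 1), with moderated variances and a trend on the mean. Such differences understate changes of low genes. A protein-coding gene entered the test when 2 or more libraries reached 1 FPKM, which 12204 did, and p-values were adjusted over these by Benjamini-Hochberg, with a threshold of 0.05. BDKRB2 did not enter, and its values are from the fit without this filter. Diets were compared with ND, and the effects of sucrose, fat and their interaction were taken from the same model. Genes named are the 8 in the table, the 3 most like each with a mean of at least 1 FPKM, and in each comparison the 3 further pathway genes with the smallest p. The members and lists were chosen with earlier results of these data known, and the dorsal and ventral lists after values were seen. Endothelial, mural, pigment epithelium, astrocyte, Müller, microglia, blood, fibroblast, surface epithelium, early-response and muscle markers were summed.

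Alternatives were a pseudocount of 0.1, no filter, median-ratio scaling, only the libraries compared, a replicate block, limma's voom on recovered fragments, and each retina left out. THBD is not analysed here, as no row carried this symbol. Same-numbered retinas of different diets did not deviate together (correlations -0.16 to 0.08), so the numbers do not pair them. Some measured genes are not reported here.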

Additional observations from a re-analysis of the deposited data

How the results depend on the processing

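Of 441 results recomputed under the alternatives, 398 kept their direction and their side of the threshold, 21 turned in sign, 7 lost the threshold and 15 counts moved by over 1.5 times, where counts that moved by less are among those kept. In the main fit 1 gene was called, SERPINB2 with sucrose, and that call was kept in 7 of 14 settings. For the other genes, staying on the uncalled side is weak evidence of stability. The number of genes called with sucrose (1, SERPINB2) became 0 without the filter on low values and 0 with voom, and was 0 to 1 with each retina left out. With the replicate number as a block (a replicate block, although the numbers do not pair the retinas) it was 1, with an adjusted p of 0.0181 for SERPINB2, and the count over all genes went from 42 to 25. By the fold rule, a pseudocount of 0.1 gave 2 genes in HFD and 5 in HSD, and leaving out each retina gave 0 to 2 genes in HFD, 1 to 4 in HSD and 2 to 5 in HFSD. Signs turned only with a retina left out. The ranges then were -0.25 to 0.47 for SERPINB2 and -0.68 to 0.26 for F3 in HFD, and -0.13 to 0.48 for SERPINE2 in HSD. PLAU ran from -0.60 to 0.23 in HFD, -0.40 to 0.43 in HSD, -0.55 to 0.28 in HFSD and -0.18 to 0.24 with sucrose. TFPI ran from -0.56 to 0.28 in HFD, -0.83 to 0.17 in HSD, -0.54 to 0.30 in HFSD and -0.40 to 0.10 with sucrose. The cause was not tested. BDKRB2, TFPI and PLAU rest on 1 to 94 fragments per library.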
